A study of Sus scrofa with 15 samples.

Results

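The 12 prepartum libraries of the series, out of 15 in all, were described here along a single line of time: messenger RNA of mammary tissue at 14, 10, 6 and 2 days before parturition, with 3 libraries at each time point. The libraries were chosen by the time given in the sample labels, and the 3 libraries of 1 d postpartum were left out. They came from the same 3 crossbred sows (Danish Landrace × Yorkshire), biopsied at every time point, which carried no genetic change and were picked by the study for a high colostrum yield. Each sow was put on another test diet in late gestation. By the gestation days that the study gives, the diets began only after the first biopsy and close to the next. These days are too coarse to tell whether the start came before or after that next biopsy. The step between time points with which the start falls together is therefore not known, and a sow's later values cannot be told apart from its diet. Pregnancy stage and the number of earlier biopsies both advance with day. The sow of a library was taken from the sequencing summary of the study and entered the model as a block. For every gene the log2 of the TMM-normalized CPM (read counts scaled to a common library size) was fitted on day as a number, which asks which genes rose or fell along the whole prepartum fortnight rather than between a pair of time points.

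In late pregnancy the alveolar epithelium of the mammary gland passes through secretory differentiation: genes of the caseins and of the whey proteins are switched on, the rough endoplasmic reticulum (ER) and the Golgi expand, and enzymes of fat synthesis and the proteins that wrap fat droplets for secretion accumulate. Prolactin acts through the transcription factor STAT5, while progesterone holds secretion back until shortly before birth. In the sow, colostrum with immunoglobulins taken up from blood is formed in the same days.

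The total count per library lay between 13459054, in sow 3 at 2 d, and 19952918 (median 18268016). No trend of it with day was found (exact permutation test of the days within sow, two-sided, p = 0.5995). The 10 genes with the most counts held 17.7% ± 1.59 (SD, n = 3) of a library at 14 d and 30.5% ± 5.28 at 2 d, a rise that gave the smallest p the 13824 arrangements of the exact permutation test allow (p = 0.0001447). The TMM factor, which scales for such a shift, fell from 1.12 ± 0.047 (SD, n = 3) to 0.847 ± 0.085 (p = 0.000434 by the same exact permutation test). Without it the median change of all genes moved by -0.40 log2, with 3.57% of all genes called rising and 54.5% falling, so every change given here is relative to the bulk of the genes. The RNA integrity number listed by the study also rose with day, a rise that was not tested. With this number as a covariate 22 of the 2711 called genes described below still passed, while 2687 kept their direction. That fit called 0.112% of all genes rising and 0.0598% falling. The median level of long genes relative to short ones fell by 0.072 log2 over the 12 days (exact permutation p = 0.01447), and with this level as a covariate 1.23% of all genes were called rising and 0.359% falling. Epithelial transcripts were present throughout: KRT8, a keratin of luminal cells, lay between 180 and 459 CPM in the 12 libraries. Skin was represented unevenly, since KRT1, a keratin of epidermis, was at 359 CPM in replicate 4 of 14 d prepartum and at 0.149 CPM in replicate 1.

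Of 13382 genes tested, 2711 (20.3%) had a slope that passed an adjusted p of 0.05 in limma-voom, 1496 rising (11.2%) and 1215 falling (9.08%). A change is given below as the slope multiplied by 12 days, that is, the log2 change along the fitted line from 14 d to 2 d, ± its SE. The median change of the rising genes was 0.61 and that of the falling genes -0.56. It was at least 1 in 346 rising and 180 falling genes and at least 3 in 42 rising genes and 2 falling ones. Thus the large changes were mostly rises, and most called genes moved by less than 1 log2 unit in 12 days. The falling genes had a median length of 2496 bases, against 1979 for the rising genes and 2054 for all genes tested. The cause of this difference was not tested.

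Most gene lists described below were put together by function from names in the study's gene table, with some members added from its text. The lists of milk proteins, lactose synthesis, hormone signalling, immunoglobulin transport, mitochondrially encoded genes and myoepithelial markers were instead chosen as known genes of the tissue, nearly all from outside the part of that table used here. The genes of that table that were used here were called in 21.9% of 1979 cases and all others in 19.98% of 11403. Counts of list members below are to be set against 11.2% rising and 9.08% falling among all genes tested.

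A gene was termed steady when, beside its call, the mean log2 CPM moved in the same direction at each of the 3 steps between time points and the slope had the same sign in each of the 3 sows. This held for 963 rising genes (7.2% of those tested) and 776 falling ones (5.8%). With the stricter demand that every step went the same way within every sow, 137 rising (1.02%) and 90 falling genes (0.673%) remained. The steps were not of equal size. Steady rising genes moved by a median of 0.13 log2 from 14 d to 10 d, 0.20 from 10 d to 6 d and 0.28 from 6 d to 2 d, and the last step was the largest in 533 of them. For the steady falling genes the medians were -0.14, -0.17 and -0.27, and the last step was the largest in 435. A quadratic term added to the line passed the threshold in 0 genes with limma-voom and in 0 with edgeR (1104 and 1308 genes at an unadjusted p of 0.05), with a smallest adjusted p of 0.276 in limma-voom. When the 3 libraries of 2 d were left out, 0.804% of the genes tested were called rising and 0.173% falling, and 97 of the called genes still passed, 76 rising and 21 falling, while 2672 of the 2681 that could be tested kept their direction.

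Caseins CSN1S1, CSN2 and CSN3 rose in all 3 sows. They are the main milk proteins, carried in milk as micelles with calcium phosphate. Their genes lie side by side on chromosome 8 of Sscrofa10.2, with CSN1S1 (ENSSSCG00000009262) at 148201997 to 148222501, CSN2 (ENSSSCG00000009261) at 148228429 to 148236984 and CSN3 (ENSSSCG00000009267) at 148440837 to 148444886. CSN2, which encodes β-casein, stood at 3448, 2351 and 1147 CPM in sows 1, 2 and 3 at 14 d, at 7072, 16600 and 4106 at 10 d, at 22090, 33040 and 11770 at 6 d and at 72960, 105500 and 35670 at 2 d. Every step was a rise in every sow, and the 3 libraries of 2 d lay above the other 9. The change was 4.86 ± 0.37 (adjusted p = 8.6e-06, limma-voom).

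CSN1S1, for αs1-casein, was already high at 14 d, with 17160, 16650 and 14140 CPM in the 3 sows, and reached 58120, 88010 and 50500 CPM at 2 d without overlap, a change of 1.96 ± 0.15. CSN3, for κ-casein, which keeps the micelle in solution, went from 966, 1296 and 856 CPM at 14 d to 14660, 22790 and 6906 at 2 d, a change of 3.55 ± 0.33. The relative rise of CSN1S1 was thus smaller than that of the other caseins, from a start that differed little between sows. Between CSN2 and CSN3, at 148310617 to 148326957, lies ENSSSCG00000009263, which the tables used here do not pair with a name. It was the gene with the largest slope, with 63.8, 22.6 and 10.0 CPM in the 3 sows at 14 d and 24820, 51210 and 2788 CPM at 2 d (change 9.19 ± 1.04).

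Of the whey proteins, LALBA encodes α-lactalbumin, the regulatory subunit of lactose synthase. It stood at 16.4, 6.91 and 1.20 CPM at 14 d, 37.4, 57.3 and 3.43 at 10 d, 138, 173 and 8.37 at 6 d and 1479, 2048 and 97.9 at 2 d. Sow 3 was the lowest at each time point, and its value of 2 d lay below those of the other sows at 6 d. The change was 7.37 ± 1.26 (adjusted p = 0.0016), and the call was lost without sow 2 (adjusted p = 0.059) and without the 2 d libraries (adjusted p = 0.156). LALBA was not alone in this: of 130 named genes that were called, 73 lost the call without sow 2 and 106 without the 2 d libraries. Among 8 milk protein genes tested, 7 rose and none fell, beside 11.2% and 9.08% of all genes, with a median change of 2.75. These genes were picked as milk proteins, and several are discussed by the study on these same samples, so the count is not independent evidence of a rise. The others that rose were LTF, the iron-binding lactoferrin (0.85 ± 0.16), MFGE8, the lactadherin of the fat globule membrane (1.27 ± 0.24), and LPO, lactoperoxidase (3.54 ± 0.93), whose value of 2 d was 10.98, 7.40 and 0.556 CPM in the 3 sows, so that it rested on sows 1 and 2. SPP1, osteopontin, changed by -0.87 ± 0.30 with an adjusted p of 0.052.

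**Figure D1:**
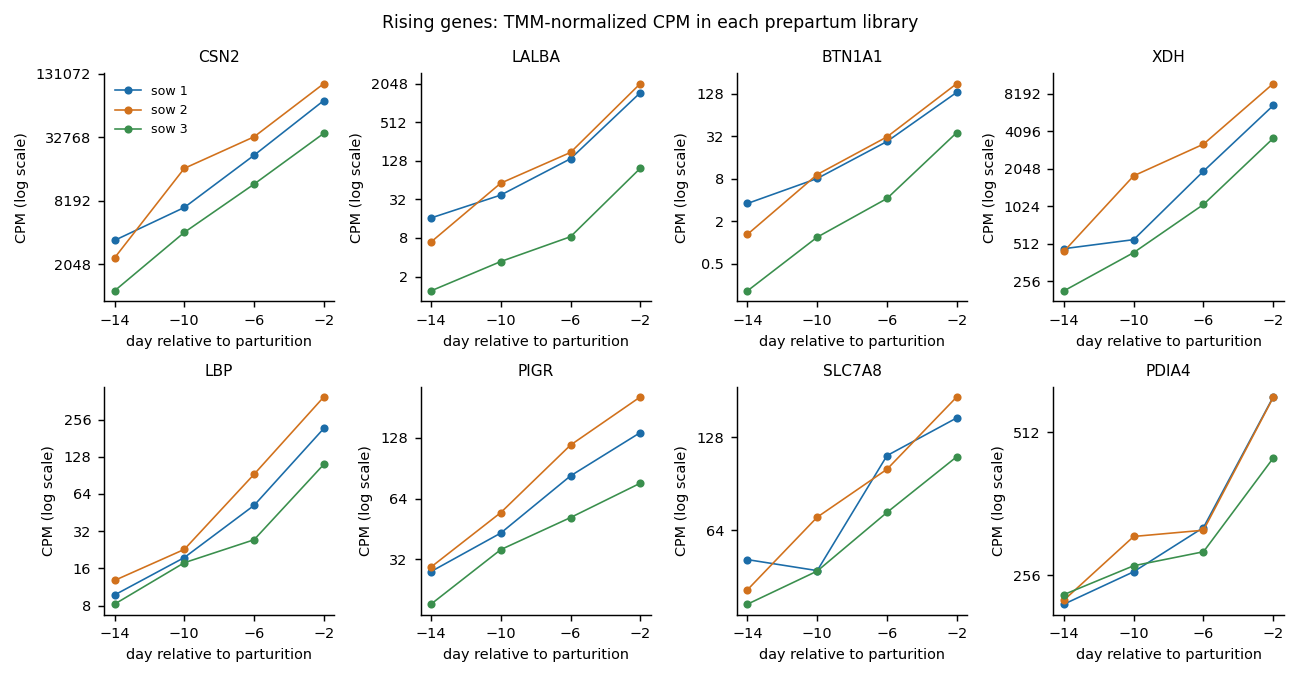
CPM of 8 rising genes (log axis) by day relative to parturition in the 12 prepartum libraries, with 1 line for each of the 3 sows. All but SLC7A8 rose at every step in every sow, sow 3 was the lowest at 2 d for all 8 genes, and PDIA4 moved mainly between 6 d and 2 d.

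Genes of fat synthesis and secretion were also among the risers. Milk fat leaves the cell as a droplet wrapped in plasma membrane, and butyrophilin and xanthine oxidoreductase are the proteins that tie the membrane to the droplet. BTN1A1, for butyrophilin, stood at 3.58, 1.31 and 0.208 CPM in the 3 sows at 14 d and at 133, 177 and 36.0 at 2 d, a change of 6.78 ± 0.87. XDH, for xanthine oxidoreductase, went from 466, 444 and 214 CPM to 6593, 9886 and 3596 (4.14 ± 0.38). For both genes the libraries of 2 d lay above all 9 others, with sow 3 the lowest. ACSL6, an acyl-CoA synthetase, changed by 4.86 ± 0.77, from 59.9, 19.7 and 3.38 CPM to 725, 748 and 134.

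Of 39 genes for fatty acids, triacylglycerol and lipid droplets, 22 rose and 3 fell, with a median change of 0.52. Of these 39, 16 were taken mostly from the study's own text, which chose them on these samples, and 15 of them rose; among the other 23, 7 rose and 3 fell, with a median of 0.18. Those of de novo synthesis included ACACA, acetyl-CoA carboxylase (1.22), FASN, fatty acid synthase (0.73), and SLC25A1, which exports citrate from mitochondria (0.56 ± 0.07). The desaturases SCD (1.21) and FADS1 (1.30) rose, whereas FADS2 (0.06 ± 0.17, adjusted p = 0.843) did not pass. GPAM, which attaches the first acyl chain to glycerol phosphate, stood at 575, 558 and 525 CPM at 14 d and 990, 1125 and 1059 at 2 d (0.95 ± 0.11), with little spread between sows at either time. GK, which phosphorylates glycerol (0.96 ± 0.22), and DGKA, a diacylglycerol kinase (0.50 ± 0.10), rose as well. The fallers were CRLS1, cardiolipin synthase (-0.50 ± 0.10), SCD5, another desaturase (-0.91 ± 0.20), and LPCAT4, an acyltransferase of phospholipids (-0.43 ± 0.14).

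Sterol synthesis had its largest median step at the end of the fortnight. Of 17 genes tested, 8 rose and none fell, and the median change of 0.34 became -0.05 without TMM. Without the 9 genes not drawn from the study's gene table, 3 of 8 rose, with a median of 0.09. The median step was -0.03 from 14 d to 10 d, 0.01 to 6 d and 0.41 to 2 d. LSS, which closes the sterol rings, stood at 61.2, 68.6 and 56.0 CPM at 14 d and 124, 137 and 92.8 at 2 d (0.89 ± 0.13). FDPS, for farnesyl diphosphate (1.11 ± 0.17), MVK, mevalonate kinase (0.90 ± 0.15), and INSIG1, an ER brake on the pathway (1.34), rose too, while SQLE (-0.29), squalene epoxidase, did not pass. Of 20 genes of sphingolipid metabolism 4 rose (20%) and 1 fell (5%), beside 11.2% and 9.08% of all genes, around a median of -0.01. ORMDL3, a regulator of ceramide synthesis (0.73 ± 0.10), NEU1, a sialidase (0.52 ± 0.08), and HEXA, a lysosomal hexosaminidase (0.36 ± 0.08, below 0 without TMM), rose, and NSMAF fell (-0.50 ± 0.15).

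The secretory pathway gave the largest number of risers, in the largest list, while the shares of milk proteins and mitochondrially encoded genes were higher. Of 52 genes of ER protein folding and translocation, 36 rose and none fell, with a median change of 0.57 (0.17 without TMM, when 15 rose and 9 fell). Of the 19 members taken mostly from the study's text, chosen on these samples, 16 rose, and of the other 33, 20 rose with a median of 0.38. The median change was 0.75, 0.57 and 0.28 in sows 1, 2 and 3. PDIA4, a disulfide isomerase, stood at 223, 227 and 233 CPM at 14 d and at 608, 607 and 452 at 2 d, without overlap (1.20 ± 0.15). SERP1, which guards the translocon, changed by 0.84 ± 0.10, DERL3, of ER-associated degradation, by 1.71 ± 0.25, and XBP1, the transcription factor of the ER folding programme, by 1.11, whereas the chaperone HSPA5 (0.46) did not pass. The steps were uneven, with medians of 0.11, 0.03 and 0.46 over all 52 members, and 22 of the 36 risers met the definition of steady.

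Vesicle traffic between ER and Golgi had 17 risers and no faller among 33 genes, with a median change of 0.38 that turned to -0.02 without TMM, and 11 of the 27 members from the study's gene table rose. ARFGAP3, which acts on the COPI coat (0.82 ± 0.11), GBF1, its activating exchange factor (0.69 ± 0.10), and KDELR3, which returns ER proteins (1.64), were among them. Synthesis of N-glycans, dolichol and GPI anchors had 8 risers and no faller among 28, with a median of 0.20 (-0.19 without TMM). SLC35A2, the carrier that brings UDP-galactose into the Golgi, stood at 21.6 ± 3.35 CPM (SD, n = 3) at 14 d and 44.7 ± 9.69 at 2 d (1.04 ± 0.15). DPM3, of dolichol-phosphate mannose synthase (0.56 ± 0.10), and B4GALT3, a galactosyltransferase (0.42 ± 0.08), rose less.

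Lactose is made in the Golgi from glucose and UDP-galactose. Beside LALBA and SLC35A2, UGP2, which makes UDP-glucose, rose by 1.16 ± 0.21. HK1, the hexokinase that traps glucose in the cytosol, stood at 82.7, 81.1 and 88.1 CPM at 14 d and 59.2, 54.0 and 57.3 at 2 d, and fell by 0.53 ± 0.08. Its groups of 14 d and 2 d did not overlap, and every step was a fall in every sow. In all, 3 of the 8 genes of lactose synthesis and glucose supply rose and 1 fell.

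Among transport genes, 6 of 33 solute carriers rose (18.2%) and 5 fell (15.2%), beside 11.2% and 9.08% of all genes (median 0.12, and -0.28 without TMM). SLC7A8, a carrier of neutral amino acids, was at 51.4, 41.0 and 36.9 CPM at 14 d, 47.4, 70.6 and 47.2 at 10 d, 112, 101 and 73.1 at 6 d and 148, 173 and 111 at 2 d (1.81 ± 0.17). SLC50A1, a sugar transporter of the Golgi and plasma membrane, rose by 1.14 ± 0.14. The 5 carriers that fell did so by 0.29 to 0.64, among them SLC44A1, a choline carrier (-0.38 ± 0.10), SLC25A43 (-0.29 ± 0.09) and SLC25A25, both of the mitochondrial family (-0.50 ± 0.16 for the latter). Of 19 aquaporins, tight junction proteins and channels 6 rose (31.6%) and 2 fell (10.5%). AQP9, a water and glycerol channel, was at 0.43 ± 0.20 CPM (SD, n = 3) at 14 d and 6.20 ± 1.67 at 2 d (4.07 ± 0.39), AQP3 changed by 0.92 ± 0.13 and the chloride channel CLIC5 by 1.94 ± 0.35. The potassium channel KCNK1 (-0.84 ± 0.20) and LRRC8B (-0.61 ± 0.20), a subunit of a volume-regulated channel, fell.

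Transcripts of the mitochondrial genome rose by small amounts in nearly all members: 10 of 13 passed and none fell, with a median change of 0.36, which was -0.05 without TMM. ATP6, a subunit of ATP synthase, stood at 8819, 7885 and 8161 CPM at 14 d and 10900, 12010 and 10660 at 2 d (0.45 ± 0.07). ND3 (0.37 ± 0.06, below 0 without TMM) and COX2 (0.53 ± 0.09) were alike. Of 23 nuclear genes of the respiratory chain 5 rose (21.7%, beside 11.2% of all genes) and none fell, ROMO1 (0.43 ± 0.09), UQCR10 (0.43 ± 0.11) and ATP5PB (0.21 ± 0.06, below 0 without TMM) among them. Of 22 ribosomal proteins and translation factors 6 rose (27.3%) and none fell, led by RPS21 (0.34 ± 0.08), RPL4 (0.26 ± 0.07) and RPL14 (0.27 ± 0.07), and all 3 of these turned below 0 without TMM. Of 14 genes of the mitochondrial ribosome and 8 of the proteasome 0 passed in limma-voom, edgeR or DESeq2, and 0 had an unadjusted p of 0.05 in limma-voom.

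Genes of prolactin and steroid hormone signalling had a small median change. Of 14, 4 rose (28.6%) and 1 fell (7.14%), beside 11.2% and 9.08% of all genes, with a median change of 0.22 (-0.17 without TMM). VDR, the vitamin D receptor, was at 110, 121 and 106 CPM at 14 d and 283, 245 and 270 at 2 d (1.22 ± 0.22), and it had reached 196 and 235 CPM at 10 d and 6 d in sow 1 while sow 3 was still at 104 and 108. ELF5, a transcription factor of alveolar differentiation (0.53 ± 0.12), STAT5B, which carries the prolactin signal (0.34 ± 0.09, below 0 without TMM), and NR3C1, the glucocorticoid receptor (0.41 ± 0.12), rose. TNFSF11, a target of progesterone in the gland, fell by 1.34 ± 0.34 and is also counted among the fallers of the innate list below. The receptors PRLR (0.07 ± 0.30), ESR1 (0.55 ± 0.20, adjusted p = 0.062) and PGR (-0.77 ± 0.28, adjusted p = 0.064) did not pass.

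Genes of mucosal defence split. Of 25 genes of innate sensing, acute phase and complement, 5 rose (20%) and 4 fell (16%), beside 11.2% and 9.08% of all genes, around a median of -0.11. Of the 5 members from outside the part of the study's gene table used here, 3 rose and 1 fell. Among the other 20, 2 rose (10%) and 3 fell (15%), with a median of -0.16. LBP, which hands bacterial lipopolysaccharide to its receptor, stood at 9.74, 12.8 and 8.22 CPM at 14 d, 19.6, 22.8 and 17.8 at 10 d, 51.7, 92.3 and 27.3 at 6 d and 217, 390 and 111 at 2 d. All sows rose at every step, and the groups of successive time points did not overlap. The change was 4.58 ± 0.43. TLR2, a receptor for bacterial lipoproteins (2.07 ± 0.31), and TNFSF13, a survival factor of plasma cells (0.62 ± 0.10), rose as well, while CD14 (-0.22) and TLR4 (0.09) did not pass. LYZ, lysozyme, fell from 66.1, 26.6 and 38.2 CPM to 15.2, 12.1 and 10.4 (-1.54 ± 0.29), and C8G, a complement subunit, fell by 0.90 ± 0.25. Ceruloplasmin, CP, the plasma copper carrier, was at 0.348, 0.361 and 0.728 CPM at 14 d and at 4.22, 23.2 and 2.38 at 2 d (4.33 ± 0.94).

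PIGR, the receptor that carries polymeric IgA through the epithelium, went from 27.8, 29.3 and 19.2 CPM at 14 d over 43.2, 54.6 and 35.8 and 83.0, 118 and 51.6 to 136, 204 and 76.4 at 2 d (2.38 ± 0.24), a rise at every step in every sow. SDC1, a syndecan of epithelium and plasma cells, fell from 56.0, 97.8 and 91.3 CPM to 30.1, 21.6 and 55.1 (-1.20 ± 0.24). FCGRT and MZB1, the other members of this list of 4, did not pass.

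**Figure D2:**
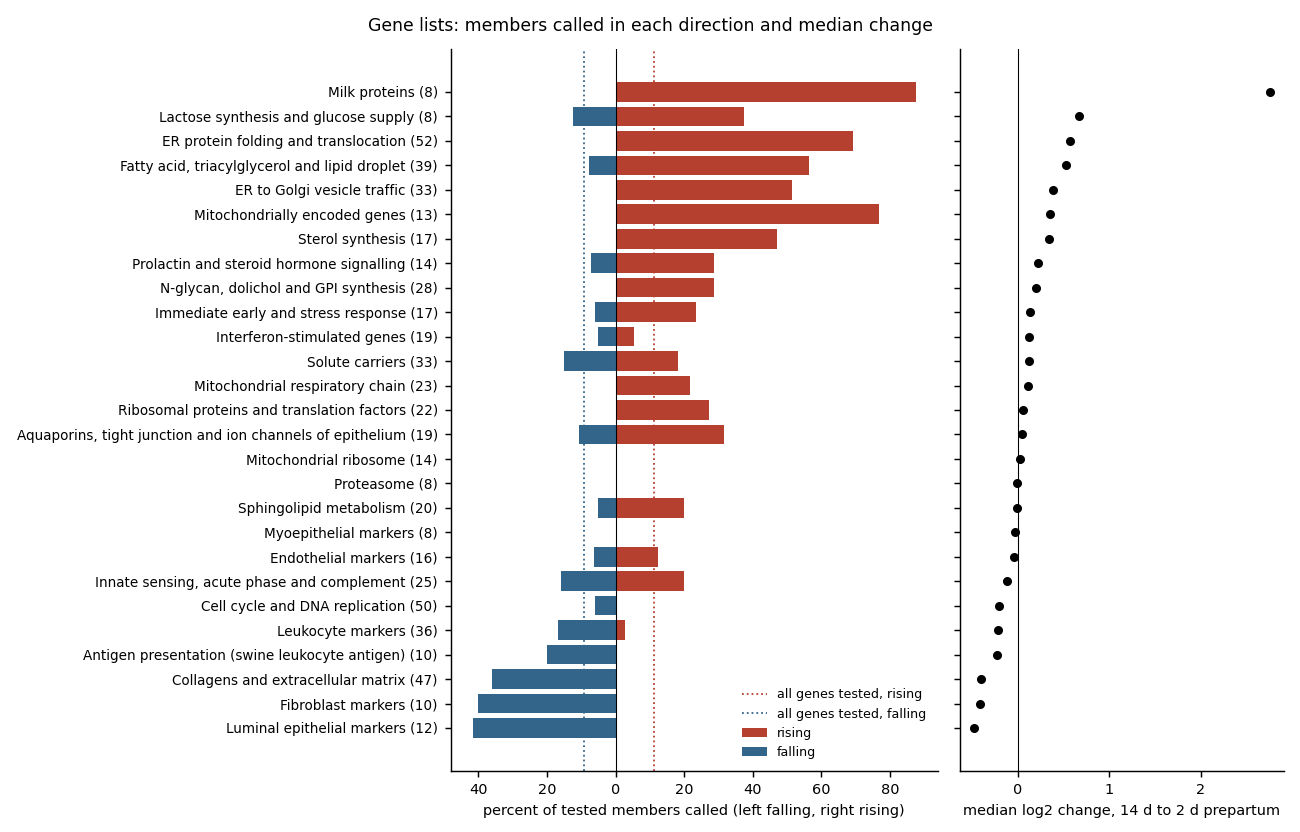
Left, percent of the tested members of each gene list (number in brackets) that rose or fell, with dotted lines at 11.2% and 9.08% for all genes tested. Right, median log2 change of the list from 14 d to 2 d. Milk proteins, ER folding and mitochondrially encoded genes had the largest shares of risers, luminal, fibroblast and matrix lists the largest shares of fallers. Without TMM every positive median of 0.38 or less fell below 0.

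The falling side was shallower, as given by the counts above. Among steady fallers with a name and a mean of at least 5 CPM at some time point, APCDD1L, a relative of the Wnt inhibitor APCDD1, had the largest slope, from 44.0, 15.3 and 47.6 CPM at 14 d to 2.60, 0.917 and 11.2 at 2 d (-2.81 ± 0.61). GABRP, the π subunit of a GABA receptor found in mammary epithelium, stood at 81.0, 104 and 77.7 CPM at 14 d, 27.8, 44.9 and 59.1 at 10 d, 17.7, 36.2 and 34.3 at 6 d and 13.3, 16.6 and 23.0 at 2 d (-2.34 ± 0.25). The 14 d libraries lay above all 9 others, and GABRP remained called when the 2 d libraries were left out. C1QL2 (-2.35 ± 0.41), MMP7, a matrix protease (-2.12 ± 0.49), HEPACAM, an adhesion molecule (-1.89 ± 0.30), BAMBI, a decoy receptor of TGF-β signalling (-1.79 ± 0.30), CRABP2, which binds retinoic acid (-1.68 ± 0.30), SLC6A3, the dopamine transporter (-1.67 ± 0.38), TRIM10 (-1.64 ± 0.34) and DISP3 (-1.87 ± 0.59) completed the 12 with COL9A1 and THBS2. The unnamed ENSSSCG00000013150 (-1.76 ± 0.51) and ENSSSCG00000023322 (-1.46 ± 0.36) had the largest slopes among steady fallers without a name. On the rising side the 12 named genes with the largest slopes were completed by MEIKIN (4.57 ± 0.87), which lies beside ACSL6 on chromosome 2, DNAJC6, which uncoats clathrin vesicles (4.22 ± 0.55), KRT39 (4.42 ± 0.88), the adenosine receptor ADORA1 (4.49 ± 0.38) and, without a name, ENSSSCG00000016731 (7.74 ± 1.53).

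Part of the extracellular matrix list fell: of 47 genes 17 fell, none rose and 30 did not pass, with a median change of -0.40. POSTN, periostin, stood at 683, 813 and 1067 CPM at 14 d, 761, 598 and 788 at 10 d, 521, 419 and 686 at 6 d and 420, 409 and 447 at 2 d (-1.01 ± 0.14). The spread between sows narrowed from an SD of 195 to 19.7 CPM. THBS2, thrombospondin (-1.65 ± 0.28), COL9A1, a chain of type IX collagen (-2.10 ± 0.68, with sow 2 highest at each time point), and OLFML2A (-0.75 ± 0.13) fell, while COL3A1 (-0.51) did not pass. The median change was -0.23, -0.54 and -0.46 in sows 1, 2 and 3. Of the 10 fibroblast markers, which share POSTN and LUM with the matrix list, 4 fell and none rose, LUM by 0.68 ± 0.15 and ISLR by 0.84 ± 0.24. Their summed level ran from 3466 to 6534 CPM at 14 d and from 3187 to 3509 CPM at 2 d. In tissue, fewer cells of a type and less RNA per cell cannot be told apart. The part of the fibroblast share in the fall of the matrix genes was not tested.

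Some epithelial identity genes fell too. Of 12 luminal epithelial markers 5 fell, none rose and 7 did not pass (median -0.47), and their summed level was 1306 to 1373 CPM at 14 d and 748 to 975 CPM at 2 d, without overlap. KRT8 fell from 385, 459 and 366 CPM to 180, 212 and 236 (-0.90 ± 0.12). TFAP2C, a transcription factor of the luminal lineage, fell from 398, 351 and 435 CPM to 199, 134 and 271 (-0.94 ± 0.17), and RIPK4 fell by 0.67 ± 0.13. The myoepithelial list, the contractile cells around the alveoli, had 0 of 8 called in limma-voom, edgeR and DESeq2 (1 rising and 1 falling at an unadjusted p of 0.05 in limma-voom), with sums of 2285 to 2406 CPM at 14 d and 2096 to 2350 CPM at 2 d.

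**Figure D3:**
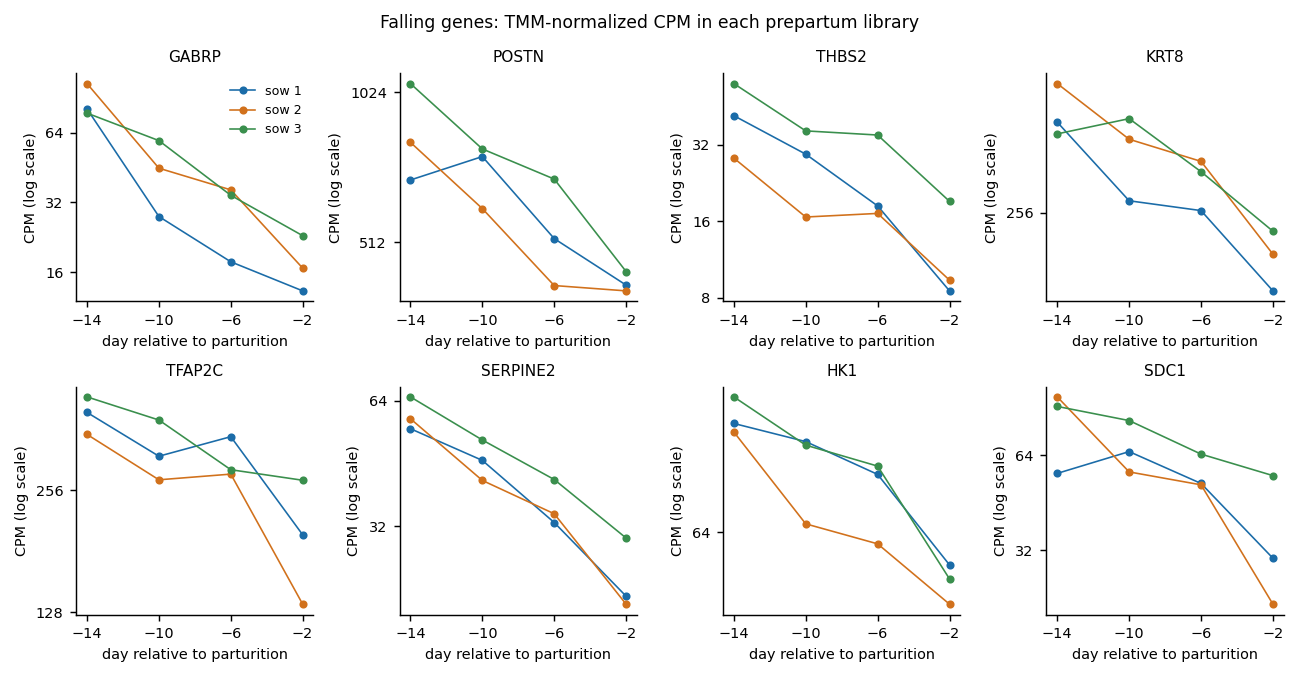
CPM of 8 falling genes (log axis) by day relative to parturition in the 12 prepartum libraries, with 1 line for each of the 3 sows. GABRP, SERPINE2 and HK1 fell at every step in every sow, and for all 8 genes the value of 2 d was the lowest of its sow.

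Cell division genes had few calls. Of 50 genes of cell cycle and DNA replication 3 fell and none rose, beside 9.08% of all genes falling. MCMBP, a partner of the replicative helicase (-0.49 ± 0.10), BUB3, of the spindle checkpoint (-0.24 ± 0.06), and HELLS, a chromatin remodeler (-0.46 ± 0.15), were the fallers, while CDK1 (-0.21) and MCM3 (-0.21) did not pass. The median of the list was -0.21 log2, and -0.60 without TMM, when 37 fell. Its steps went in both directions, 0.22, -0.33 and 0.03.

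The lists of the other cell types and of stress genes are to be set against the 11.2% rising and 9.08% falling among all genes. Of 36 leukocyte markers 1 rose, DOCK8 (0.61 ± 0.16), and 6 fell, among them PIK3AP1 (-0.49 ± 0.12), DEF6 (-0.79 ± 0.20) and NCF4 (-0.53 ± 0.15), a subunit of the phagocyte oxidase. Their sum was 514 to 559 CPM at 14 d and 476 to 507 CPM at 2 d. Of 10 antigen presentation genes 2 fell, SLA-DQA (-0.45 ± 0.12) and IFI30 (-0.38 ± 0.12). Endothelial markers had shares near those of all genes, with 2 risers, ADGRF5 (0.78 ± 0.11) and ABCC9 (0.53 ± 0.16), and 1 faller, SOX17 (-0.61 ± 0.15), among 16, with sums that overlapped between 14 d and 2 d. Of 6 adipocyte markers 0 passed in limma-voom (2 rising at an unadjusted p of 0.05, and 1 called in the edgeR fit blocked by sow), and of 4 muscle markers only ACTC1 did (0.68 ± 0.23, below 0 with the RNA integrity number as a covariate). Of 4 keratinocyte genes KRT79 rose (1.75 ± 0.35) and DSP, of desmosomes, fell (-0.46 ± 0.11), around a median of -1.01. The sum of these 4 was 630 to 1051 CPM at 14 d and 447 to 516 CPM at 2 d, with DSP alone at means of 636 and 435 CPM. Of 17 immediate early and stress genes 4 rose, including GADD45G (1.53 ± 0.30), CITED2 (1.10 ± 0.27, but -0.07 in sow 1) and STC2 (0.72 ± 0.19), and RHOB fell (-0.45 ± 0.10).

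**Figure D4:**
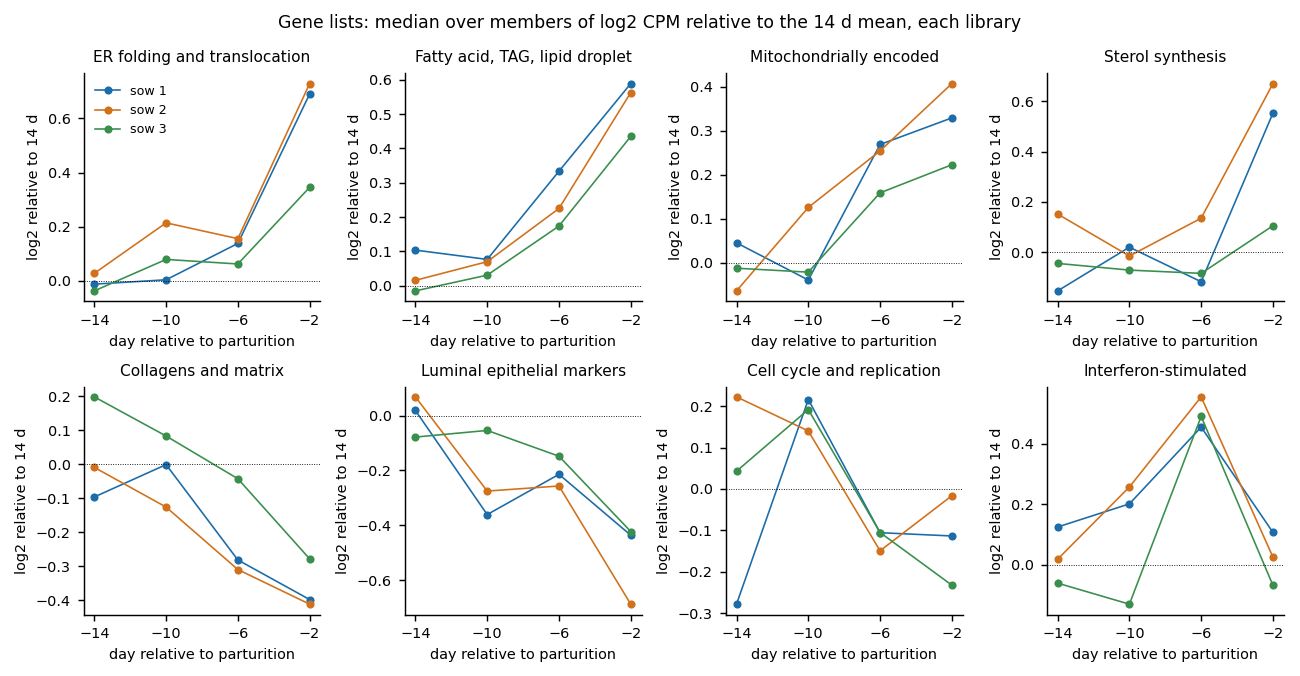
Median over the members of 8 gene lists of log2 CPM relative to the member's mean at 14 d, by day relative to parturition, for the 3 sows. The medians of ER folding and sterol genes moved mainly in the last step, matrix genes were lowest at 2 d in all 3 sows, cell cycle genes were highest at 10 d in 2 sows, and interferon-stimulated genes were highest at 6 d in all 3 sows. Relative to library totals without TMM, the sterol and mitochondrially encoded medians fell rather than rose.

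Most interferon-stimulated genes had their highest mean inside the fortnight, a pattern noticed in these data for which no gene passed the test of departure from a line. Of 19 interferon-stimulated genes only ZBP1, a sensor of nucleic acids (0.92 ± 0.27), rose and TRIM26 fell (-0.30 ± 0.08). The median step of the list was 0.07 from 14 d to 10 d, 0.32 to 6 d and -0.43 to 2 d, and 16 of the 19 had their highest mean at 6 d. For 9 of them the 3 libraries of 6 d lay above the other 9 libraries, which held for 0.658% of all genes tested. IFIT1 was at 10.9, 8.17 and 11.2 CPM at 14 d, 10.6, 14.7 and 8.53 at 10 d, 21.6, 26.8 and 32.9 at 6 d and 13.5, 13.4 and 9.86 at 2 d. ISG15 was at 15.7, 11.1 and 17.9 CPM at 6 d and at 9.05 or less in every other library. The sum over the list was 695 to 711 CPM at 6 d and 484 to 588 CPM elsewhere. Of its members 8 had an unadjusted p of 0.05 or less for the quadratic term, none passed after adjustment over all genes in limma-voom (smallest adjusted p = 0.529), and without the 2 d libraries 5 of the 19 were called rising, beside 0.804% of all genes.

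The slope was also compared between the sows. In the test of the day by sow interaction 1 gene (0.00747%) passed in limma-voom and the same gene passed in edgeR (648 and 676 genes at an unadjusted p of 0.05). Sow 2 carried the most weight in the calls: without its 4 libraries 442 genes were called, against 1308 without sow 1 and 1643 without sow 3. Among the median changes of steady genes sow 3 had the smallest, 0.50 for rising and -0.49 for falling genes, compared with 0.77 and -0.71 in sow 2.

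Finally, 14 called genes also passed in each of the 32 alternatives to the fit, which include the fit without the 2 d libraries, without each sow, without TMM and with the RNA integrity number as a covariate. They were singled out after their values were seen. A called gene that was not tested in every alternative could not be among them. This barred the caseins, which 1 alternative left out. It also barred genes such as BTN1A1, AQP9 and CP, which were below 1 CPM in some libraries. The alternative that required a CPM of at least 1 in all libraries tested only 2487 of the called genes. Absence from the 14 is therefore not always a lost call. Of the 11 with a name, 8 rose: LBP, SLC7A8, ADORA1, SLC34A2, a sodium-phosphate cotransporter (1.72 ± 0.15), ENTPD6, a nucleotidase (1.09 ± 0.10), ERGIC1, of the compartment between ER and Golgi (0.98 ± 0.10), SLC29A1, a nucleoside transporter (1.35 ± 0.14), and PIP5K1B, a lipid kinase (1.35 ± 0.16). SLC34A2 stood at 474, 417 and 419 CPM in the 3 sows at 14 d, 612, 682 and 512 at 10 d, 954, 937 and 712 at 6 d and 1503, 1891 and 1050 at 2 d, so that no group overlapped its neighbour. Those that fell were SERPINE2, a protease inhibitor of the matrix (-1.27 ± 0.11), MAOB, monoamine oxidase B (-1.57 ± 0.15), and PDLIM1, an adaptor of the actin cytoskeleton (-0.98 ± 0.10). SERPINE2 fell from 54.9, 58.0 and 65.5 CPM at 14 d over 46.1, 41.2 and 51.6 and 32.6, 34.3 and 41.4 to 21.7, 20.8 and 30.0 at 2 d, a fall at every step in every sow.

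**Figure D5:**
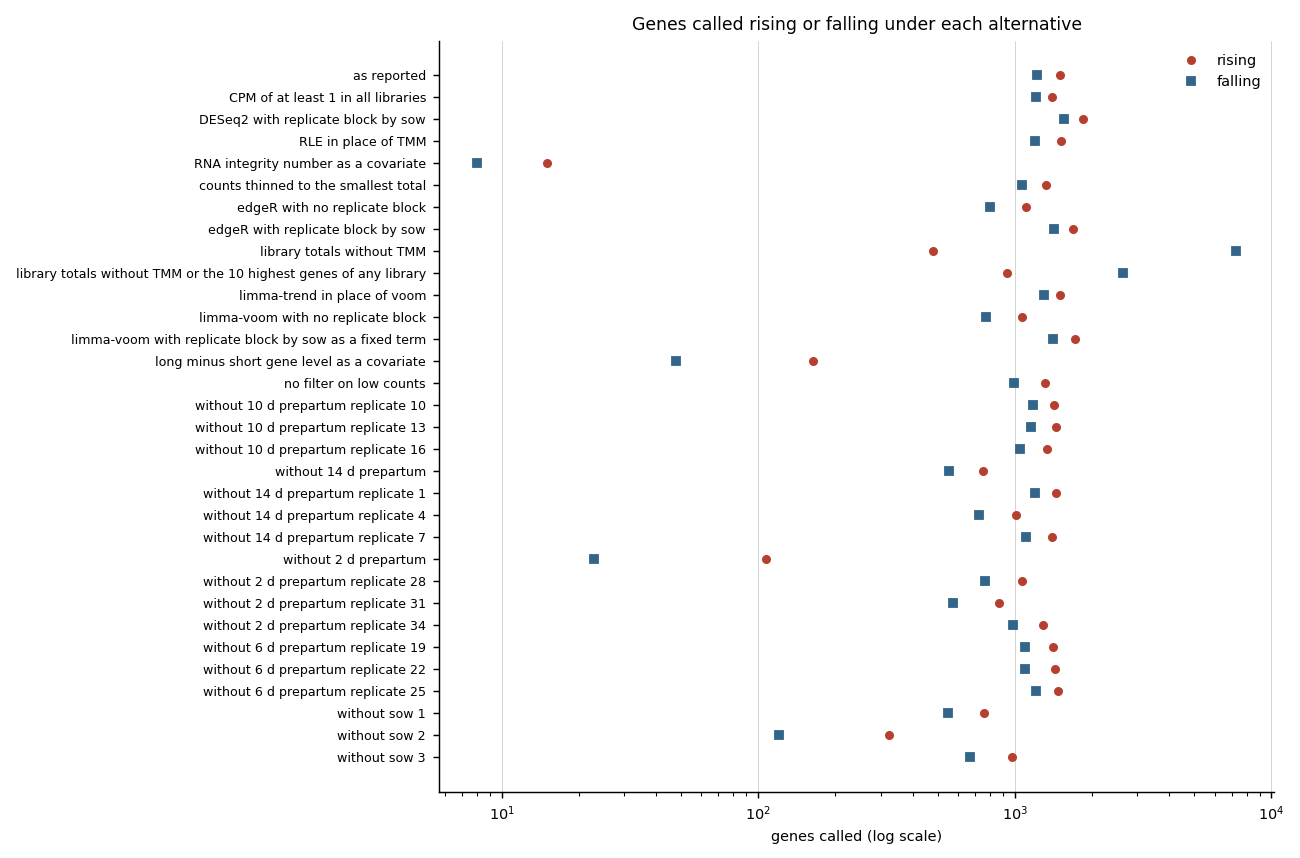
Number of genes called rising (circles) and falling (squares) on a log axis, as reported (1496 and 1215) and under each alternative. The RNA integrity number as a covariate, the long minus short gene level as a covariate and the fit without the 2 d libraries gave the fewest calls, and library totals without TMM gave 478 rising and 7295 falling genes.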

How the data were processed

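Mammary biopsies of 3 sows were sequenced as stranded single-read mRNA libraries. The authors trimmed reads (Trimmomatic, FastQC 0.11.15), aligned them with STAR 2.5.1b to Sscrofa10.2 and deposited raw counts per gene from Subread 1.5.0 featureCounts, summed over exons on the reverse strand. The file headers name an Ensembl annotation, whereas the study's methods name RefSeq. The deposited counts of 25322 genes were used for 12 of 15 libraries. Symbols came from a reference table (11735 IDs) and the study's list (354), and 69 IDs with conflicting names and 13164 without one went by ID. Any pair of libraries differed in at least 16551 genes.

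Genes reaching a CPM of 1 in 3 or more libraries were scaled by TMM (edgeR 4.0.16, R 4.3.3) and fitted with limma-voom (limma 3.58.1) on day as a number, with the sow as a random block and Benjamini-Hochberg adjustment over 13382 genes. Each library was matched to its sow by its total count in the study's sequencing summary, since the labels give no shared replicate number. Same-sow libraries deviated together from the time-point means (mean r 0.512 over 18 pairs, lowest 0.383), and the consensus correlation was 0.21. The biopsies of a sow are repeated samples of 1 animal, so that n is 3 sows with 4 libraries each, and p-values rest on the spread between these libraries. Curvature was tested with a quadratic term and differences between sows with an interaction. For 4 library values the days were permuted exactly within sow.

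Named genes were the 12 with the largest slope in each direction among steady genes with a symbol and a mean of at least 5 CPM at their highest time point, the 2 largest in each direction without a symbol, the 3 called members with the smallest p in each direction of each list, and GK and DGKA. Other members are named as known pathway genes or were chosen after their values were seen. The members and lists were chosen with earlier results of these data known, and the lists of milk proteins, lactose synthesis, hormone signalling, immunoglobulin transport, mitochondrially encoded genes and myoepithelial markers were added after the files were opened. Members of the lipid, folding, sterol, innate and solute carrier lists that come from the study's text were chosen there on these samples. They are not independent evidence of a direction.

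Alternatives were edgeR, DESeq2 1.42.0, limma-trend, other scalings, filters, thinned counts (seed 20), covariates, and fits without each library, sow, 14 d or 2 d. Scaling by library totals after removing 14 genes, those among the 10 highest of any library, was chosen after seeing the data. On simulated counts for 13382 genes with this design, limma-voom recovered 95 of 100 genes with a 2-fold and 100 of 100 with a 4-fold change and called 0 others. Genes with low counts were not among those changed, rises and falls were equally many, and RNA integrity was not simulated. The simulation therefore does not speak to changes below 2-fold, nor to the shifts in composition and RNA integrity with day in these libraries.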

Additional observations from a re-analysis of the deposited data

Results flagged for a closer look

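In the comparison of slopes between the 3 sows, CCN1, a secreted protein of the extracellular matrix, was the gene that passed (adjusted p = 0.0461 in limma-voom, 0.0215 in edgeR). In sow 1 it fell at every step from 27.6 CPM at 14 d to 6.26 at 2 d, in sow 2 it went from 23.5 over 21.5 and 17.7 to 13.8, and in sow 3 from 9.46 over 12.9 and 11.8 to 19.5. The change was -2.10 in sow 1, -0.77 in sow 2 and 0.89 in sow 3, and the common slope did not pass (-0.71 ± 0.36, adjusted p = 0.177). Each sow is 1 animal on another diet, so the animal and its diet are confounded. No time point was tested for single libraries far from the others, since each holds 3.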

How the results depend on the processing

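Of 1496 rising and 1215 falling genes, 963 and 776 of them steady, most of the following counts moved by over 1.5 times. With the RNA integrity number as a covariate there were 15 rising and 8 falling genes (14 and 6 steady), with the long minus short gene level 164 and 48 (144 and 46), and without the 2 d libraries 107 and 23 (106 and 23), of which 97 were among the reported calls. Library totals without TMM gave 478 and 7295 (265 and 4444), so that 6.15% of calls rose instead of 55.2%. With these totals 346 of the 2711 calls changed direction, and 10 of the 346 passed in the opposite direction. The same after removing the 14 highest genes, chosen after seeing the data, gave 935 and 2630 (581 and 1614), 26.2% rising. Without sow 1 there were 758 and 550 (610 and 449), without sow 2 322 and 120 (257 and 100), without sow 3 974 and 669 (501 steady falling), and without the 14 d libraries 752 and 554. With no replicate block, falling genes were 774 in limma-voom and 797 in edgeR. By contrast, the replicate block by sow as a fixed term moved no count by over 1.5 times, with 1692 and 1426 in edgeR, 1850 and 1558 in DESeq2 and 1720 and 1414 in limma-voom. An adjusted p of 0.01 left 701 and 432 (576 and 372). Steady genes were 1483 and 1208 by the sign in each sow alone and 137 and 90 by every step in every sow. Leaving out 1 library gave 871 to 1473 rising, 572 to 1204 falling, 645 to 1005 steady rising and 445 to 801 steady falling genes, with 51.9% to 92.7% of calls kept and 0 in the opposite direction. Without replicate 31 of 2 d the counts were 871 and 572, without replicate 28 of 2 d 766 fell, and without replicate 4 of 14 d 723 fell.

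Among the named genes, library totals without TMM turned HEXA (-0.039), RPS21 (-0.058), RPL4 (-0.14), RPL14 (-0.13), STAT5B (-0.060) and ND3 (-0.031). They also turned ATP5PB (-0.19, adjusted p = 0.0306 in limma-voom) and TLR4 (-0.32, adjusted p = 0.0199), which were then called falling. The RNA integrity number turned STC2 (-0.031) and ACTC1 (-0.099). Of 130 named genes that were called, 117 lost the call but not the direction with the RNA integrity number, and 87 with the long minus short gene level. Without the 2 d libraries 106 lost the call, and without sow 2 the number was 73. The cause of these shifts was not tested. Genes under 1 CPM in all but 1 or 2 libraries were not tested in the reported fit.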
